A study of Mus musculus with 4 samples.

Results

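The genes described here were 10 genes of Wnt signalling: the ligands Wnt5a, Wnt5b and Wnt2, the secreted antagonists Frzb, Sfrp1, Sfrp2, Dkk2 and Dkk3, the matricellular protein Wisp2, and the intracellular feedback gene Axin2. They were read as the ATAC-seq peaks that lay in or within 50 kb of each gene as RefSeq places it on GRCm38, and all 10 were found among 21896 protein-coding genes. In ATAC-seq the Tn5 enzyme inserts sequencing adapters into open chromatin, so a peak marks a region that was more accessible than its surroundings. Peaks that overlapped by at least 1 bp in any of the 4 libraries were merged into a site, which gave 179 sites near the 10 genes among 172311 sites in the genome. The rule used gene names and positions and no measured value.

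The cells were chondrocytes, the cells that make and hold cartilage matrix, released by digestion of knee cartilage from mice of the C57BL/6 strain at postnatal days 0 to 4 and grown in DMEM/F12 medium with 10% fetal bovine serum. Cells at P0 had been in culture for less than a day, and cells at P8 had been replated 8 times, each time after their number had doubled, a model of dedifferentiation. Each passage had 2 libraries of 50000 cells, called library A and library B here because no label tied a peak list to a numbered library. The sources used here do not say how many mice gave the cells or whether the libraries came from separate cultures, so the spread between libraries may be technical.

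Wnt proteins are secreted lipid-modified ligands that bind Frizzled receptors, either with the LRP co-receptors to stabilise beta-catenin or through other receptors without it. Secreted Frizzled-related proteins bind Wnt proteins outside the cell, and Dickkopf proteins act on the LRP co-receptors. In cartilage the balance of the pathway is known to set whether chondrocytes keep their matrix-forming state or move on to hypertrophy or loss of phenotype.

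The libraries held 145703 and 119974 peaks at P0 and 89610 and 99784 at P8. The lowest local background, which follows the number of tags in a library, was 1.42 and 1.18 tags at P0 and 1.02 and 0.979 tags at P8, so both P0 libraries were deeper. Of 10 chondrocyte markers, 10 and 10 had a peak within 1 kb of a gene end at P0 and 8 and 9 at P8, with Matn1 without one in both P8 libraries. Of 6 fibroblast markers, all 6 had a peak in each P0 library and 5 in each P8 library, Pdgfra being the one without. Of 5 macrophage and leukocyte markers 2 had a peak in each P0 library (Cd68 and Cd14) and 1 in each P8 library (Cd14), and Ptprc, Csf1r and Adgre1 had none in any library. Kdr and Tek, of 4 endothelial markers, had a peak in all 4 libraries, and of 3 muscle markers Myod1 had a peak in all 4 and Myog in P0 library A. What these differences in depth and in cell types contribute to the counts below was not tested.

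The promoter sequences of 5 members are given first, because the results at their starts are described below. RefSeq gives 8 promoter windows of 300 bases, 250 before to 50 after a start, for 6 of the 10 genes on GRCm38.p6. Frzb is shown because of its start site. Of the sites with a peak in all 4 libraries, it differed most between the passages in rank among all peaks of a library. Axin2 is shown because its start ranked at the 79.1 percentile or above in every library. The third start of Wnt5b is shown because its peak was higher in both P0 libraries, and Sfrp2 and Dkk2 because no site shared by libraries overlapped their windows. Capitals mark matches on either strand to the motifs named below. Frzb lies on the minus strand at chr2:80447347-80447646, Axin2 on the plus strand at chr11:108920099-108920398, Wnt5b start 3 on the minus strand at chr6:119449337-119449636, Sfrp2 on the plus strand at chr3:83766071-83766370 and Dkk2 on the plus strand at chr3:132085042-132085341.
Frzb: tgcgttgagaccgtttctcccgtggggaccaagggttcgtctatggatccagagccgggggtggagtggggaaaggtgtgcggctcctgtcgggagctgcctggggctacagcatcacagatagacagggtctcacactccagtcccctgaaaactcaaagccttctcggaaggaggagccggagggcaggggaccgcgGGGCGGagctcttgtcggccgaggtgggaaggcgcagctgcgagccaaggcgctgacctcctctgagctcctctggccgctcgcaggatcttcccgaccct
Axin2: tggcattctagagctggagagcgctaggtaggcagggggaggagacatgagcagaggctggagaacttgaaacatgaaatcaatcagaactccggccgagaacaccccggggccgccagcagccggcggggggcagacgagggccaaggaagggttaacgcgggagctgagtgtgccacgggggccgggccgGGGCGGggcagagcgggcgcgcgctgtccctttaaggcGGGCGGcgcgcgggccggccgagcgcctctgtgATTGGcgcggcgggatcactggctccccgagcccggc
Wnt5b start 3: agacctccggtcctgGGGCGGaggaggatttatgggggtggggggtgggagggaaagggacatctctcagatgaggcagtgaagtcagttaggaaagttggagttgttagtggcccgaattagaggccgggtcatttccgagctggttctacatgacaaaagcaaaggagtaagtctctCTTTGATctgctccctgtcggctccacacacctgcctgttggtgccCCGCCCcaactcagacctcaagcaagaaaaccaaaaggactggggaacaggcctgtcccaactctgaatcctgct
Sfrp2: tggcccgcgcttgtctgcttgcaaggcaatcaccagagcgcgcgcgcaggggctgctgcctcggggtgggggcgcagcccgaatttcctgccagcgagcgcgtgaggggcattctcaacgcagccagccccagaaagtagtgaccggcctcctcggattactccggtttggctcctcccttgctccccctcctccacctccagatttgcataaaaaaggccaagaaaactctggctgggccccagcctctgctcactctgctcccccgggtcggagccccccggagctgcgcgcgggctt
Dkk2: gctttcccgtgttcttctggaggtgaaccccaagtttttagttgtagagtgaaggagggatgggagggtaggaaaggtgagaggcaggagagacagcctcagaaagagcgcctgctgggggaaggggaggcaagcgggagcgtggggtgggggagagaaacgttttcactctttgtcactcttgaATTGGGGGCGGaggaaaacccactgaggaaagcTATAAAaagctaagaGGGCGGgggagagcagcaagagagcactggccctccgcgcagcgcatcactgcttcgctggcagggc

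The motifs searched were the TCF/LEF core, written CTTTGAT or CTTTGAA, the AP-1 site TGANTCA, the SOX core AACAAT, the RUNX core TGTGGTT, the GC box GGGCGG, the TATA box TATAAA and the CCAAT box. Of 32851 RefSeq promoter windows of the mouse, 8.65% held a TCF/LEF core, 7.81% an AP-1 site, 10.7% a SOX core, 5.27% a RUNX core, 35.7% a GC box, 13.6% TATAAA and 37.4% CCAAT. Beta-catenin acts on its target genes through TCF/LEF proteins, and the third Wnt5b start was the member window with a TCF/LEF core, at 71 bases before the start. The peak there covered the last 30 bases of the printed window and ran on into the gene, so it did not reach that core. The first Wnt5b start, which is not printed, held an AP-1 site at 191 bases before the start and 3 GC boxes, 2 of which overlap. Frzb held 1 GC box, at 51 bases before the start, and Axin2 held 2, at 58 and 20 bases before it, besides a CCAAT box in reverse 14 bases after it. Dkk2 held a TATAAA 32 bases before the start and 2 GC boxes, one of which directly follows a CCAAT box in reverse, and none of the searched motifs was found in the window of Sfrp2. A match of letters is a description of the window and not evidence of a bound factor.

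The first comparison asked how many open regions lay near these genes at each passage. Peaks near the 10 genes numbered 156 and 130 in the P0 libraries and 91 and 109 in the P8 libraries, a mean of 143 ± 18.4 against 100 ± 12.7 (SD, n = 2 each). Both P0 libraries held more than either P8 library, by a ratio of means of 1.43. An exact two-sided permutation test over 2 against 2 libraries gave p = 0.333, the smallest value this design allows, so no comparison between the passages here can pass a threshold of 0.05. The whole peak lists differed by nearly as much, with a ratio of 1.40, and the peaks near the 10 genes made up 0.107% and 0.108% of the P0 lists and 0.102% and 0.109% of the P8 lists. On that scale the passages overlapped, and the ratio was 1.02. A region with a lower peak may have been open in fewer cells or less open in each, and these bulk libraries cannot tell these apart.

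Peaks near the genes were also wider at P0, as were those of the whole lists. The median peak spanned 220 and 200 bp in the P0 libraries, against 167 and 184 bp in those of P8, and together the peaks covered 45.2 and 35.1 kb at P0 and 18.8 and 23.8 kb at P8, a ratio of 1.88. Gene bodies held 68 and 58 peaks at P0 and 42 and 49 at P8, while the flanks held 88 and 72 at P0 and 49 and 60 at P8, so the higher count at P0 was present in both.

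**Figure D1:**
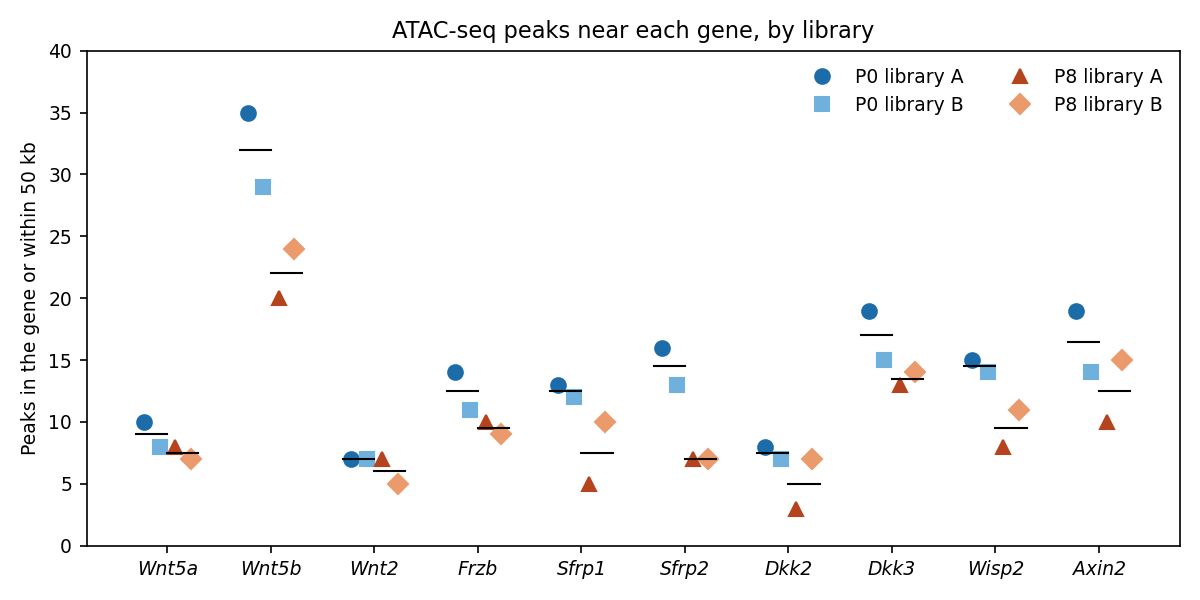
Number of ATAC-seq peaks in or within 50 kb of each gene, with 1 point for each library and a line at the mean of the 2 libraries of a passage. Wnt5b had the most peaks, from 20 to 35 a library, and the passages did not overlap at Wnt5b, Frzb, Sfrp1, Sfrp2, Dkk3 and Wisp2.

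At 6 of the 10 genes both P0 libraries held more peaks than either P8 library (Wnt5b, Frzb, Sfrp1, Sfrp2, Dkk3 and Wisp2), and at 0 genes did both P8 libraries hold more. Among 20361 protein-coding genes with a site in their window, 48.3% had more peaks in both P0 libraries and 3.95% more in both P8 libraries, so neither share of the members stood far from that of other genes. The largest ratio was at Sfrp2, with 16 and 13 peaks at P0 and 7 and 7 at P8. Sfrp2 binds Wnt proteins through a domain like that of the Frizzled receptors. This ratio of means was 2.07, where the median ratio was 1.29 over 18878 genes with a peak in every library. At Wnt5a, Wnt2, Dkk2 and Axin2 the passages overlapped, with 7 and 7 peaks at P0 and 7 and 5 at P8 for Wnt2.

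The windows of the 10 genes were filled to different densities. The number of merged sites for each 100 kb of window was highest at Wnt5b, at 17.4, followed by Wisp2 at 16.0, Axin2 at 15.8, Frzb at 15.5, Dkk3 at 15.3, Sfrp2 at 14.7, Sfrp1 at 11.6 and Wnt5a at 9.76. Wnt2 and Dkk2 were lowest, at 5.43 and 4.10. The median protein-coding gene with a site had 10.6. These densities have no replicate, since sites were merged over libraries. The windows of Frzb, Sfrp1, Sfrp2, Dkk2 and Axin2 held no other protein-coding gene, whereas that of Wnt5b reached Adipor2, Fbxl14, Gm52875 and Erc1, that of Wnt2 reached St7 and Asz1, that of Wisp2 reached Kcnk15 and Rims4, that of Wnt5a reached Erc2 and that of Dkk3 reached Usp47. For 143 of the 179 sites the member was the nearest protein-coding gene.

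**Figure D2:**
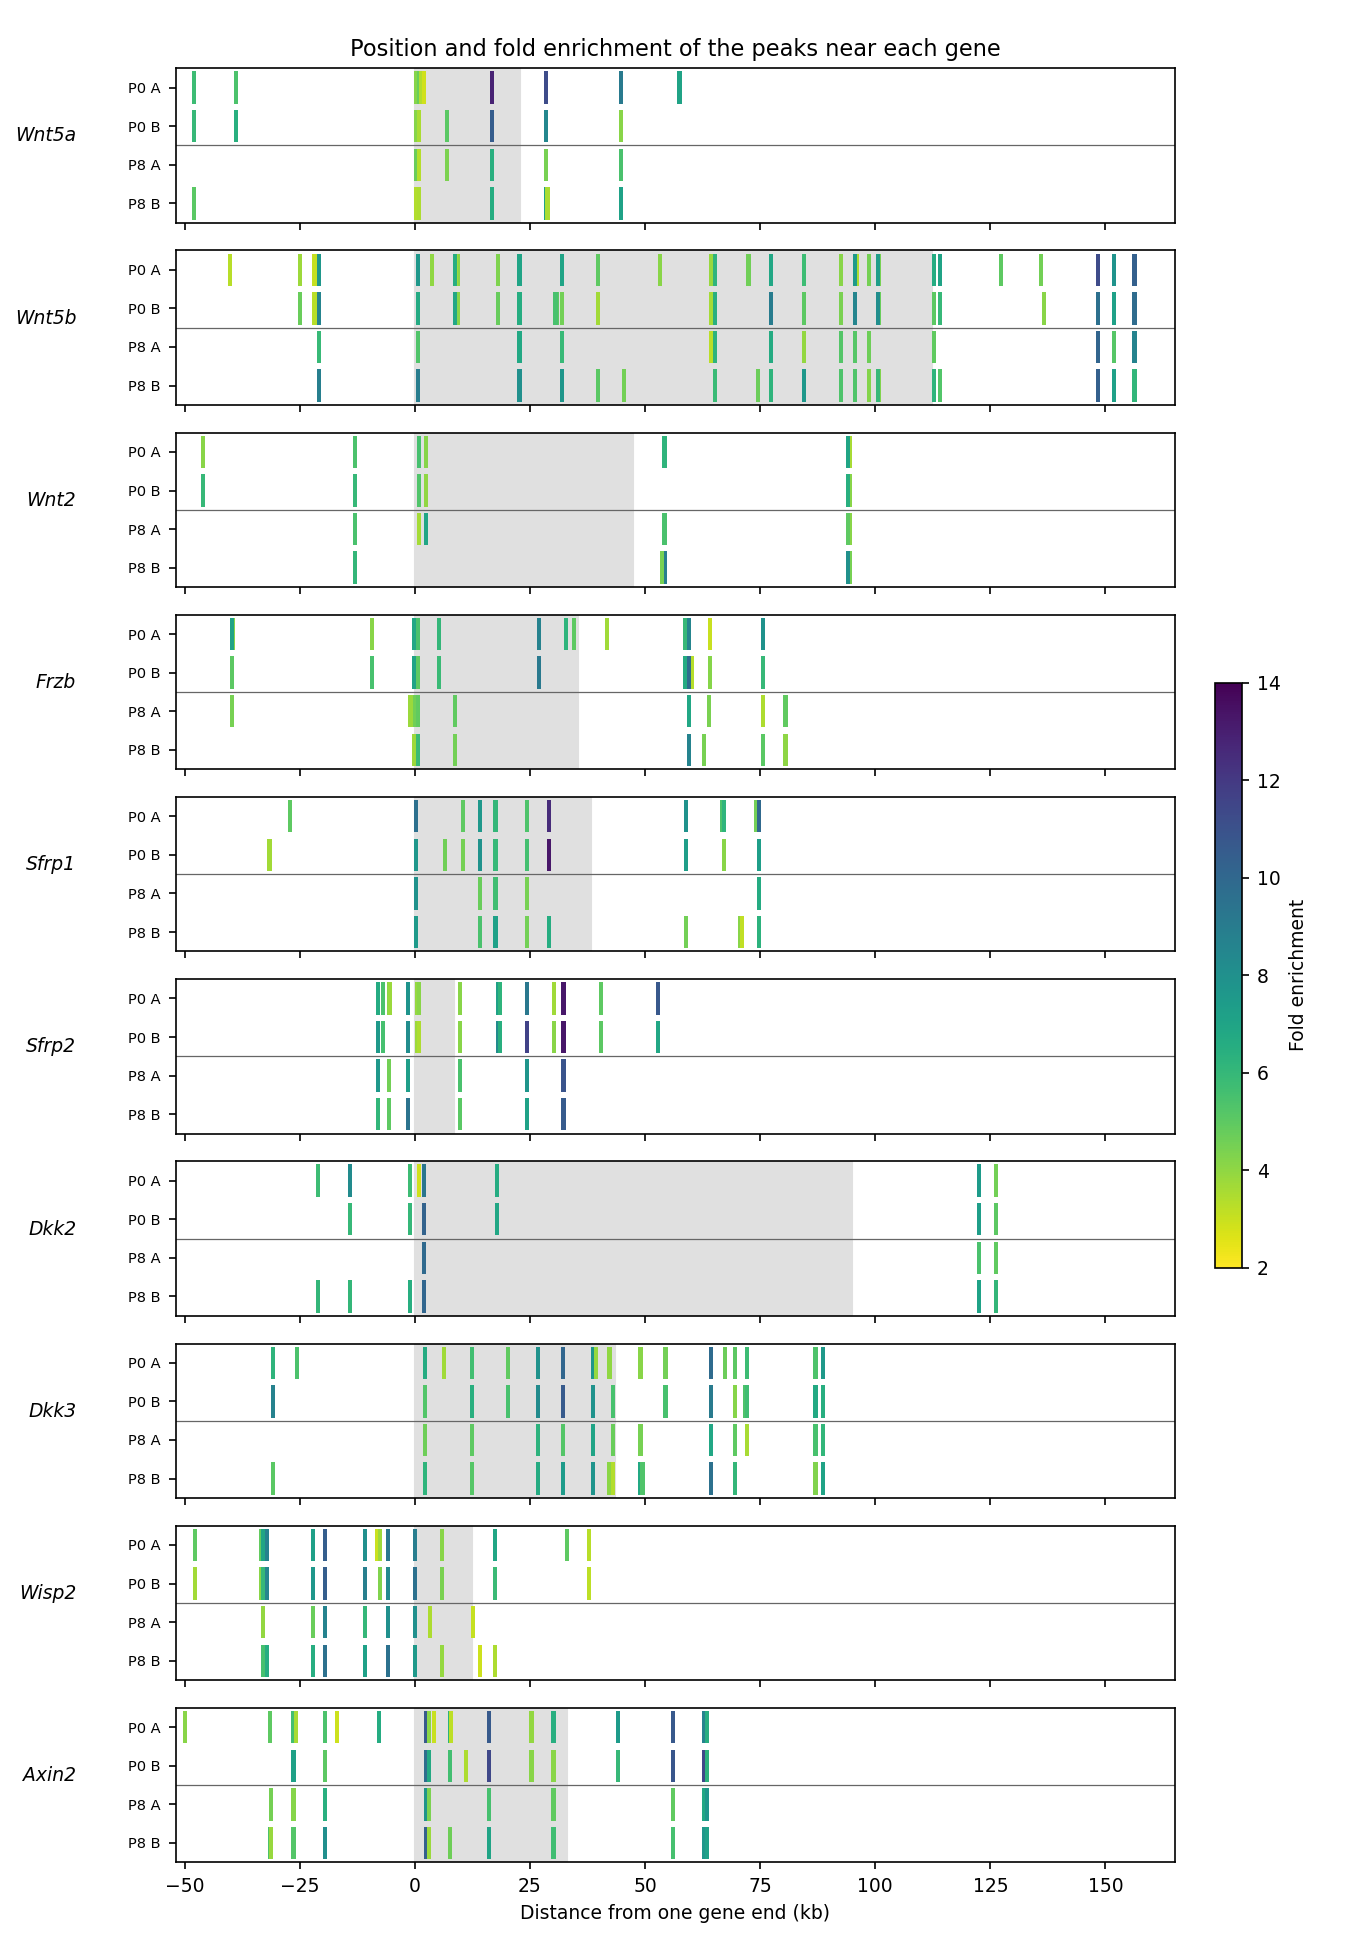
Peaks in the window of each gene, with 1 row for each library, coloured by fold enrichment and drawn at equal width for visibility. The x axis is the distance in kb from the gene end that lies nearer the RefSeq start, or from the end of lower coordinate for Wnt5a, Sfrp1, Dkk3 and Wisp2, and the grey span is the gene. Dense rows stand at Wnt5b, with 37 sites, and sparse ones at Wnt2 and Dkk2, with 8 each.

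The next comparison asked which sites were called at a single passage. Of the 179 sites, 62 held a peak in all 4 libraries, 30 in both P0 libraries and neither P8 library, and 3 in both P8 libraries and neither P0 library. Another 28 were held by other combinations and 56 by 1 library. The P0-only sites were 16.8% of the members' sites against 17.0% of all sites in the genome, and the P8-only sites 1.68% against 1.84%. Sites of all 4 libraries were 34.6% against 32.4%. The members' sites were thus spread over the classes much as those of the genome were. With P0 library B left out 64 sites had a peak in P0 library A and in no P8 library. With P0 library A, P8 library A or P8 library B left out 7, 12 and 8 sites were found at P8 alone. Fewer libraries then had to agree, and without genome shares under the same omission these counts are not set against the genome.

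**Figure D3:**
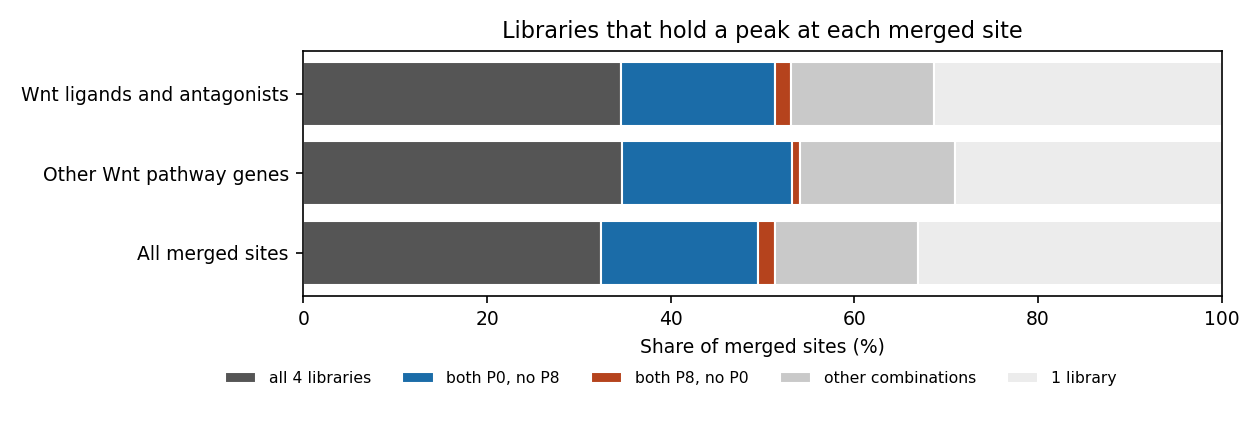
Share of merged sites, in percent on the x axis, by the libraries that hold a peak, for the 179 sites of the 10 genes, the 1507 sites of 75 other Wnt pathway genes and all 172311 sites. The share called at P0 alone was 16.8%, 18.5% and 17.0%, and that at P8 alone 1.68%, 0.863% and 1.84%.

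All 10 genes had at least 1 P0-only site, and P8-only sites were found at 2, Frzb and Axin2. Among the 20361 protein-coding genes with a site, 78.9% had a P0-only and 19.0% a P8-only site. By role, 17 of the 83 sites of the secreted antagonists were P0-only, 7 of the 57 of the ligands, 4 of the 18 of Wisp2 and 2 of the 21 of Axin2. Sfrp2 had the most, with 7 of 16 sites (43.8%), and Frzb and Wnt5b had 5 each. As many as the 7 of Sfrp2, a limit taken from its own count, were found at 5.53% of protein-coding genes. Gene bodies held 10 of the 30 P0-only sites, and for 22 of the 30 the member was the nearest gene. Their mean fold enrichment, the pileup at the summit over the local background, had a median of 5.01 and ran from 3.16 to 8.92. The median over all P0-only sites of the genome was 5.02. In 6 of the 30 both P0 libraries had a fold enrichment of at least 6, a count with no genome share beside it. The 3 P8-only sites had means from 4.17 to 4.75, and none was left when peaks with a −log10 q under 5 were dropped.

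**Figure D4:**
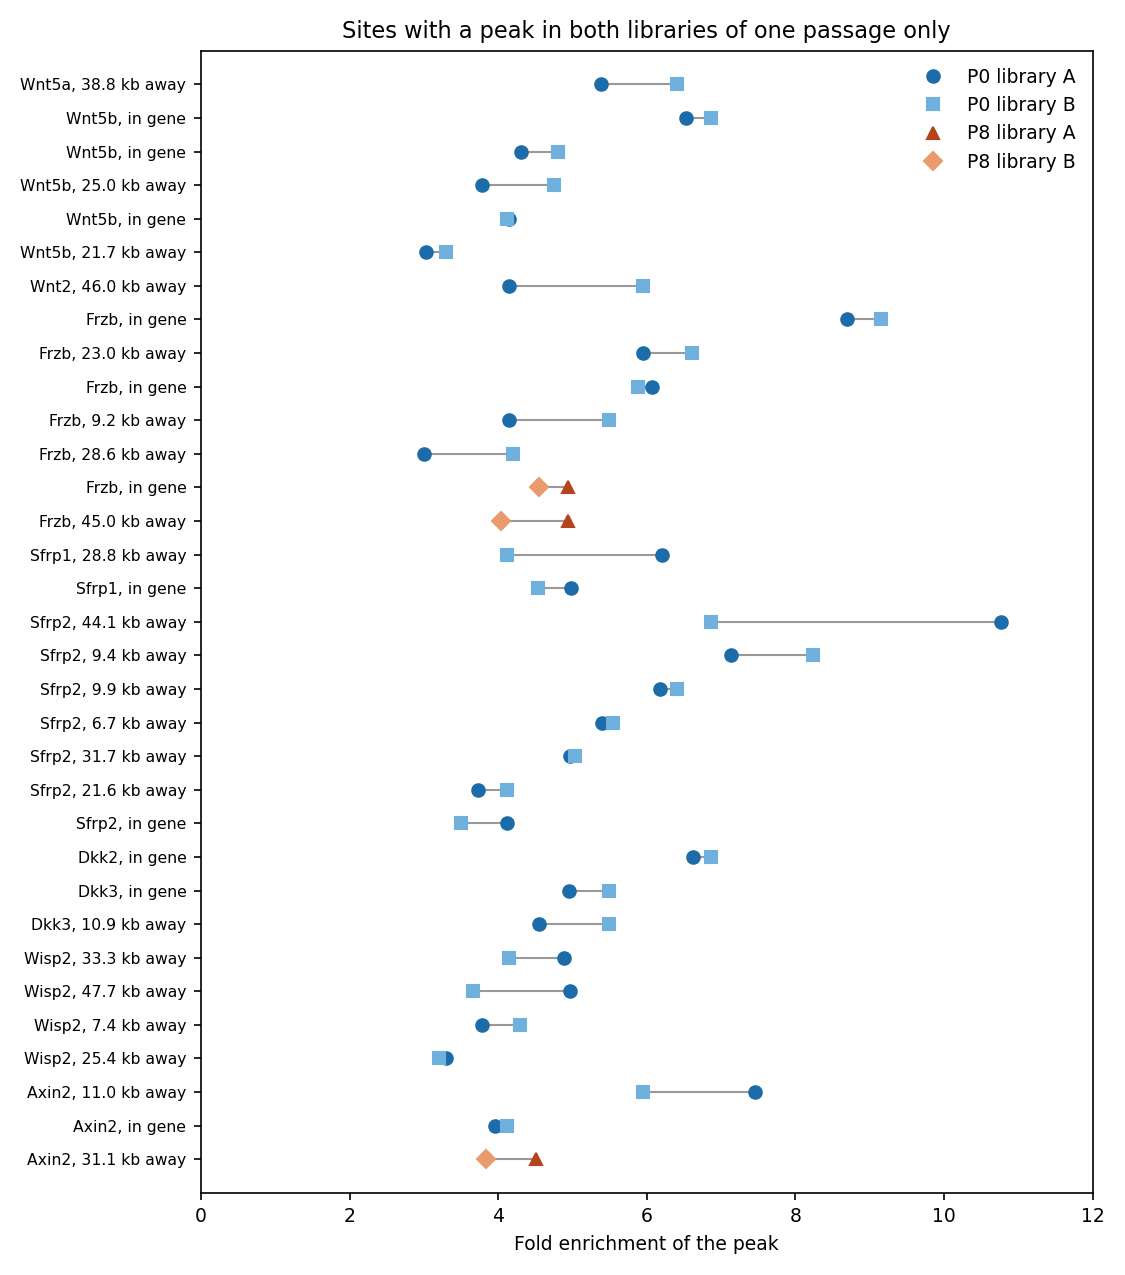
Fold enrichment of the peak in each library at the 30 sites called at P0 alone and the 3 called at P8 alone, ordered by gene and labelled by their distance from it. A site inside Frzb and one 44.1 kb from Sfrp2 have the highest means, and the 3 P8-only sites lie between 3.83 and 4.94.

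In what follows, the highest site of a gene is the one with the highest mean fold enrichment over the libraries that held a peak there, so libraries without a peak do not lower it. The ligands were Wnt5a and Wnt5b, which signal mainly without beta-catenin and shape growing cartilage, and Wnt2, which can act through beta-catenin. The highest site of Wnt5a lay in the gene at chr14:28521144-28521438, with fold enrichments of 12.8 and 10.5 at P0 and 6.43 and 6.57 at P8. Both P0 libraries were well above both P8 libraries there, with means of 11.7 ± 1.63 and 6.50 ± 0.0991. The site over the gene end of lower coordinate was modest in every library, at 4.20 and 4.16 at P0 and 4.76 and 3.36 at P8, so the passages overlapped. One site of Wnt5a was P0-only, 38.8 kb away and inside Erc2, at 5.38 and 6.41.

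Wnt5b had the longest gene of the 10, at 112 kb, and 3 RefSeq starts, and a site with a peak in all 4 libraries overlapped the promoter window of each. The first start measured 7.59 and 6.73 at P0 and 5.31 and 8.98 at P8, and the second 6.87 and 8.99 at P0 and 6.64 and 6.21 at P8. At the first the passages overlapped, and at the second both P0 values were above both P8 values, though the ranks of the libraries overlapped. The site in the third window, whose sequence is given above, ended short of the start on the side of the gene and had 7.51 and 8.56 at P0 and 5.15 and 5.31 at P8. It was higher in both P0 libraries by fold enrichment and by rank, with means of 8.04 ± 0.742 and 5.23 ± 0.115. The first start lies within 1 kb of an end of Gm52875 as well, so its peak cannot be given to one gene alone. The highest site in the window, at 11.2, 9.61, 10.1 and 10.4 over the libraries, lay 35.9 kb beyond the gene inside Adipor2 and did not separate the passages. Of the 5 P0-only sites the 3 with the highest means had 6.52 and 6.87, 4.31 and 4.81, and 3.78 and 4.76, the first 2 inside the gene and the last 25.0 kb upstream, at an end of Erc1.

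Wnt2 had few sites, and those at its start were uneven between libraries. At the start the fold enrichment was 4.17 and 3.98 at P0 and 6.90 in P8 library A, with no peak in P8 library B. The highest site, 6.8 kb downstream, measured 6.21 in P0 library A and 5.44 and 8.90 at P8 and had no peak in P0 library B. Neither site was shared within both passages, so neither shows a difference between them. The P0-only site lay 46.0 kb upstream inside Asz1, at 4.14 and 5.95.

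Among the secreted antagonists, Frzb, also called sFRP3, binds Wnt proteins and is known as a gene of articular cartilage. Its start site at chr2:80447276-80447766 covered all 300 bases of the promoter window, with fold enrichments of 6.86 and 7.04 at P0 and 4.58 and 3.77 at P8. The pileups were 37.0 and 32.0 tags at P0 and 11.0 and 9.0 at P8. The passages did not overlap, with means of 6.95 ± 0.129 and 4.18 ± 0.569. The mean rank among all peaks of a library was 47.6 percentile points higher at P0. On that scale this was the largest difference among the 62 sites that all 4 libraries shared. Ranked among the genome's shared sites only, the Frzb start site stood at 32.5 and 38.5 at P0 and 14.1 and 2.30 at P8. A shared site downstream of Axin2 then differed more, with 75.4 and 75.6 at P0 and 20.6 and 23.6 at P8. The highest site of Frzb was P0-only and lay in the gene at chr2:80420199-80420555, at 8.69 and 9.15. It ranked above 79.9% of the peaks in each P0 library, yet neither P8 library had a peak there. A site of all 4 libraries 23.8 kb downstream had a higher mean at P0, with 8.56 and 9.74, and 6.87 and 8.65 at P8. Another 2 P0-only sites had 5.95 and 6.61 at 23.0 kb downstream and 6.07 and 5.88 inside the gene. Frzb also had 2 of the 3 P8-only sites, at 4.94 and 4.55 inside the gene and at 4.94 and 4.04 at 45.0 kb downstream. Those rested on pileups of 7.0 to 9.0 tags and were thus weak.

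Sfrp1 is a second Wnt-binding antagonist of this family. A site of 1094 bp over its end of lower coordinate held a peak in all 4 libraries, at 9.62 and 7.67 at P0 and 7.93 and 7.53 at P8, and the passages overlapped. The highest site, at chr8:23440304-23440652 inside the gene, measured 12.5 and 13.3 at P0 and 6.57 in P8 library B, with no peak in P8 library A. Both P0 values lay above the 95th percentile of their libraries, at 95.1 and 95.4, and the P8 value at 62.8. The P0-only sites had 6.21 and 4.12 at 28.8 kb from the gene and 4.98 and 4.53 inside it. P8 library A held 5 peaks near Sfrp1 and P8 library B held 10, a spread between libraries of one passage as wide as the gap between the passage means.

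Sfrp2 showed a different layout, with weak peaks in the promoter window and stronger ones outside the gene on either side. In its promoter window P0 library A had a peak of 3.89 and P0 library B a separate one of 3.77, and the P8 libraries had none. A P0-only site with a mean of 3.81 ± 0.441 lay 98 bp past the window. The highest site lay 23.5 kb downstream at chr3:83797810-83798226, with 13.2 and 13.3 at P0 and 10.9 and 10.6 at P8. Both P0 libraries were higher there, with means of 13.3 ± 0.0189 and 10.7 ± 0.190. The 3 highest of the 7 P0-only sites had 10.8 and 6.87 at 44.1 kb, 7.13 and 8.24 at 9.4 kb and 6.17 and 6.41 at 9.9 kb downstream, so 2 of them lay less than 1 kb apart. The site at 44.1 kb has Tlr2 as its nearest gene. Of the 5 sites of Sfrp2 with a peak in all 4 libraries, 2 ranked higher in both P0 libraries and 2 in both P8 libraries. Of those ranked higher at P8, the one 1.2 kb upstream had 7.77 and 8.17 at P0 and 7.32 and 9.41 at P8. The one 1.2 kb downstream had 4.14 and 4.12 at P0 and 5.44 and 5.05 at P8.

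Dkk2 and Dkk3 belong to the Dickkopf family, Dkk2 acting on LRP co-receptors and Dkk3 having a less settled role. No peak overlapped the promoter window of Dkk2, and the nearest sites lay 634 bp before it and 669 bp after it. The site before it measured 5.75 and 6.03 at P0 and 6.46 in P8 library B, and the one after it 2.87 in P0 library A alone. The highest site of Dkk2, in the gene at chr3:132086985-132087539, had 9.29 and 10.2 at P0 and 9.92 and 10.1 at P8, with overlapping passages and means of 9.75 ± 0.646 and 9.99 ± 0.107. By rank both P8 libraries stood higher there, at 91.7 and 89.8 against 83.7 and 85.5. The P0-only site inside Dkk2 had 6.62 and 6.87.

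At Dkk3 the site nearest a gene end, 283 bp inside the end of higher coordinate, had 5.51 in P0 library B and 4.72 and 3.37 at P8, with no peak in P0 library A. The highest site lay 20.5 kb beyond that end, at 9.83 and 9.03 at P0 and 6.85 and 9.57 at P8, and the passages overlapped. The 2 P0-only sites of Dkk3 had 4.95 and 5.49 inside the gene and 4.55 and 5.49 at 10.9 kb from it.

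Wisp2, listed as Ccn5 in RefSeq, encodes a matricellular CCN protein named for its induction by Wnt. The site over its end of lower coordinate had 8.97 and 9.51 at P0 and 8.01 and 7.56 at P8, so both P0 libraries were higher, with means of 9.24 ± 0.382 and 7.79 ± 0.321. The highest site was 19.0 kb away, at 10.4 and 10.5 at P0 and 8.62 and 9.59 at P8. There too both P0 libraries were higher by fold enrichment, while their ranks overlapped those of P8. Its P0-only sites were low, the 3 highest having 4.88 and 4.15, 4.97 and 3.66, and 3.78 and 4.30.

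Axin2 encodes a scaffold of the beta-catenin destruction complex and is a standard target gene of beta-catenin signalling. Its start site, at chr11:108919927-108920515, was also its highest by the mean over the 4 libraries, with 10.7 and 9.75 at P0 and 7.79 and 10.3 at P8. It covered the whole promoter window, and the passages overlapped, with means of 10.2 ± 0.657 and 9.04 ± 1.77. At P0 alone other sites of the gene had higher means. Around it the gene had sites that differed in each direction. The P0-only sites, 2 in number, had 7.45 and 5.95 at 11.0 kb downstream and 3.96 and 4.12 inside the gene. A P8-only site 31.1 kb upstream had 4.51 and 3.83. That site was weak, with pileups of 9 and 8 tags, and has Cep112 as its nearest gene. A separate site beside it, 31.4 kb upstream, had 4.97 in P0 library A and 5.39 in P8 library B. A pair of shared sites was picked after their values were seen. One, 22.7 kb downstream, had 10.7 and 10.8 at P0 and 4.94 and 5.56 at P8, and the other, 19.4 kb upstream, had 5.38 and 5.03 at P0 and 6.43 and 8.08 at P8. The ratios of the means, P0 over P8, were 2.05 and 0.718.

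Over the 10 genes, 6 had a site of all 4 libraries at a RefSeq start or, where no start was given, at a gene end (Wnt5a, Wnt5b, Frzb, Sfrp1, Wisp2 and Axin2). For 2 genes, Wnt2 and Dkk3, 3 libraries held a peak there. Peaks of single libraries were found in the window of Sfrp2. No peak overlapped the window of Dkk2, where the nearest site before it was held by 3 libraries and the nearest after it by 1. By the mean over the libraries that held a peak, the highest site held one in all 4 libraries at 7 of the 10 genes and lay inside the gene at 5.

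The last comparison set the strength of the 62 shared sites at the passages side by side. Each fold enrichment was turned into a percentile rank among all peaks of its library, because the fold enrichments were not scaled between libraries. Both P0 libraries ranked above both P8 libraries at 22 of the 62 sites (35.5%), both P8 libraries ranked higher at 8 (12.9%), and the rest overlapped. Over the 55890 shared sites of the genome these shares were 39.1% and 16.4%. An alternative chosen after seeing the data took the ranks among the shared sites only, which removes the longer tail of weak peaks at P0. The members then counted 12 higher at P0 (19.4%) and 19 higher at P8 (30.6%). The genome then had 25.8% and 28.2%. The balance of the shared sites between the passages therefore turned with the list in which a site was ranked.

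The median difference in rank, P0 minus P8, was 3.83 percentile points over the members' shared sites and 4.30 over those of the genome, and among the shared sites only it was -2.78 and -0.468. Libraries of one passage differed by a median of 7.48 points at P0 and 12.3 points at P8 over the same sites, against 10.5 points between the passage means. Over the shared sites of the genome these medians were 5.78, 8.90 and 9.86 points. A difference of means over 2 libraries is less noisy than one of single libraries, so the values stand on unequal footing. Leaving out P0 library A, P0 library B, P8 library A or P8 library B gave 26, 35, 40 and 38 sites higher at P0. The sites higher at P8 then numbered 20, 10, 22 and 13. Sites that lacked a peak only in the omitted library joined the shared sites, and fewer libraries had to agree. These counts are therefore of different sets of sites and are not set against those with every library kept. No genome shares under the same omissions are given.

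**Figure D5:**
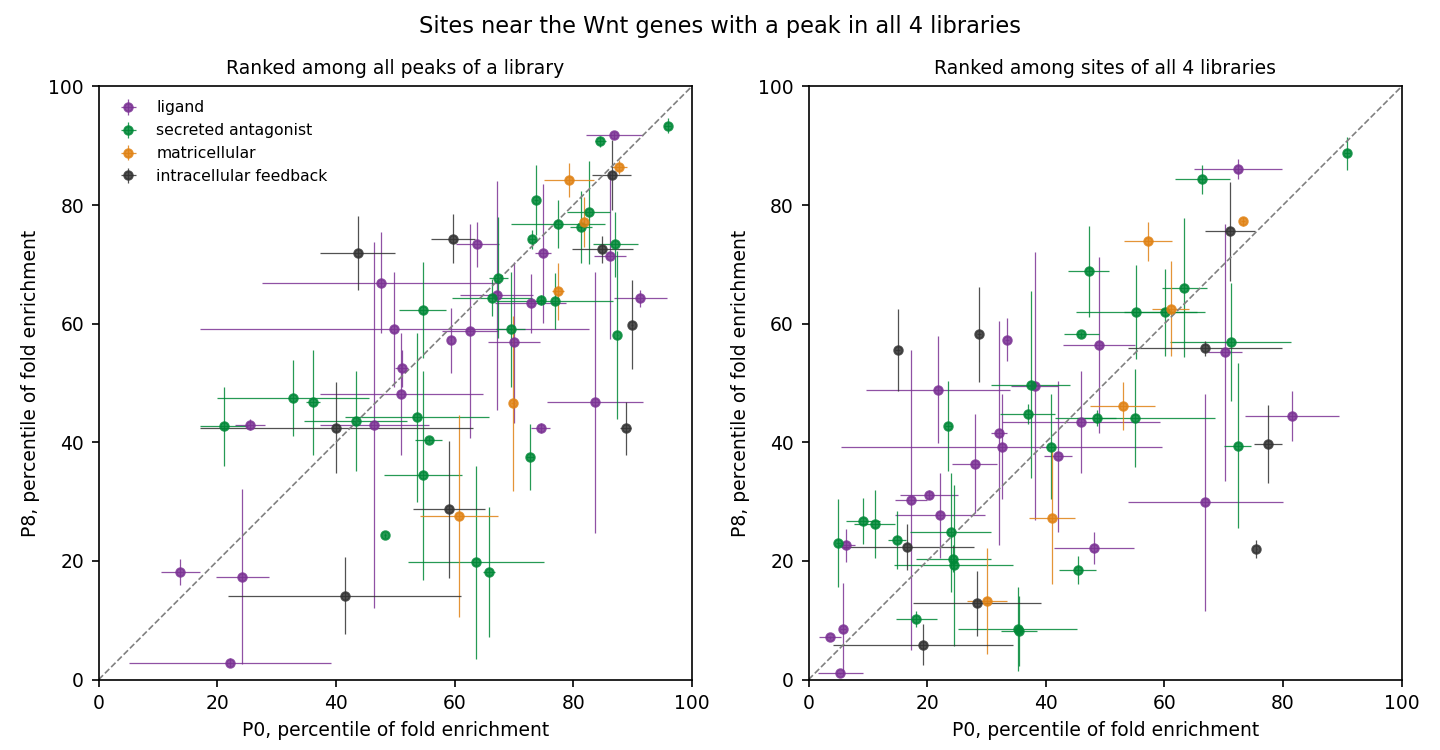
Mean percentile of fold enrichment at P0 (x axis) against P8 (y axis) for the 62 sites with a peak in all 4 libraries, coloured by the role of the gene, with bars over the range of the 2 libraries of a passage and a dashed line of equal rank. Ranked among all peaks, 22 sites have both P0 libraries higher and 8 both P8 libraries, and ranked among the shared sites 12 and 19.

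Single libraries shaped part of these counts. Of the 24 sites held by 3 libraries, 14 lacked a peak in P8 library A alone, which had the shortest peak list, 5 in P8 library B, 4 in P0 library B and 1 in P0 library A. Of the 56 sites held by 1 library, 33 were in P0 library A, which had the longest list. The site nearest to the limit of 50 kb on the inside lay 49930 bp from Axin2, and the nearest outside lay 50124 bp from Sfrp1. Both were held by 1 library.

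To place the members in the pathway, 75 other Wnt pathway genes were counted in the same way. Peaks near them numbered 1342 and 1162 at P0 and 799 and 930 at P8, a ratio of 1.45 (exact two-sided permutation test, p = 0.333). At 56 of the 75 (74.7%) both P0 libraries held more peaks, and at 1, the receptor Fzd6, both P8 libraries did, with 13 and 13 against 15 and 14 peaks. The shares among all protein-coding genes with a site were 48.3% and 3.95%. Windows of neighbouring genes, such as Wnt1 and Wnt10b, overlap and hold the same peaks, so the 75 genes are not separate units. The shares were not matched for the number of sites in a window. Of their 1507 sites, 18.5% were P0-only and 0.863% P8-only. The 9 other secreted antagonists had 26 P0-only sites of 119 and 1 P8-only site, and the 16 other ligands had 39 of 242 and 4. For the 17 receptors the counts were 80 of 365 and 3, and for the 8 nuclear factors 52 of 256 and 2. Kremen1, a receptor of Dickkopf proteins, Lef1, a TCF/LEF factor, and Nkd1, an inhibitor of Dishevelled, had 10 P0-only sites each, as did the receptor Ror2. Their windows were rich in sites, with 31 at Kremen1, 32 at Lef1, 32 at Nkd1 and 52 at Ror2. The median protein-coding gene with a site had 14. At Nkd1 the peaks numbered 30 and 23 at P0 and 7 and 13 at P8. The ligand Wnt16 had the most P8-only sites, 2 of 15, and Bcl9 and Csnk1a1 were among the genes with 1.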

How the data were processed

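Peaks of 2 P0 and 2 P8 ATAC-seq libraries were analysed. The authors sequenced 50 bp paired-end reads, aligned them with Bowtie2 (build mm10 in the submitters' processing notes, which also name MACS2, ChIPseeker, DiffBind and HOMER with no versions) and called peaks for each library with MACS2. Tn5 offset handling and duplicate filters are not given in the sources used here. The authors deposited for a peak its pileup at the summit, a signal in tags not scaled for depth, and its fold enrichment, a ratio to the local background. With these the authors deposited −log10 p and −log10 q of a peak. Another deposited table holds the authors' DiffBind comparison of the passages (log2 fold changes, p-values and FDR) and was not used.

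Libraries were told apart by the prefix of the peak names and grouped by passage. No column of values per library was left unused (0 columns). Peaks overlapping by 1 bp were merged into sites and placed on RefSeq genes of GRCm38.p6 with Python 3.11.15, numpy 2.4.6, pandas 2.3.3 and scipy 1.17.1. Where several peaks of a library fell in a site, the highest counted. Permutation tests over libraries, exact and two-sided, compared the passages. Depth is known from the background only, and the number of libraries limits the precision. The members, the other pathway genes, the markers and the motifs were chosen with earlier results of these data known. Sites printed with values were, for each gene, the site at its start or gene end, the highest site, and up to 3 sites of each passage alone. Others were added outside this rule, with the values known. These were a shared site downstream of Frzb, sites beside the promoter windows of Sfrp2 and Dkk2, and the Sfrp2 sites ranked higher at P8. At Axin2 they were the pair of shared sites and the site beside the P8-only site. Of the other pathway genes, the 3 with most sites of each passage alone were named, with ties by symbol. Alternatives were flanks of 10 kb, gene bodies, sites nearest to a member, a −log10 q of at least 5, a matched background, other scales of strength, a reciprocal overlap of 50%, covered base pairs, the share of all peaks and leaving out each library. For the matched background, the pileup of every peak was scaled down to the background of the shallowest library and its Poisson −log10 p taken anew, and peaks under the lowest deposited −log10 p (3.11) were dropped. The steps were tested on simulated data, in which 100% of 2000 merged sites were recovered.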

Additional observations from a re-analysis of the deposited data

How the results depend on the processing

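The ratio of peaks near the 10 genes, P0 over P8, stayed above 1 under every alternative, from 1.02 as a share of all peaks to 1.88 by covered base pairs, and from 1.30 to 1.57 with a library left out. For the other pathway genes the ratio was from 1.34 to 1.57 with a library left out. Matched to the lowest background, the ratio for the 10 genes was 1.40 (1.36 for all peaks). Of their 175 sites 27 were then P0-only, where 16.8% of all sites in the genome were. Wnt5a turned to 0.917 with flanks of 10 kb, and Wnt2 stood at 1 without P8 library B. With flanks of 10 kb the sites numbered 15 P0-only, 1 P8-only, 13 ranked higher at P0 and 5 at P8, and with gene bodies alone 10, 1, 12 and 3, since fewer sites were counted. Sites nearest to a member held 1 P8-only site. A −log10 q of at least 5 left 0 P8-only sites, 12 ranked higher at P0 and 5 at P8. A reciprocal overlap of 50% gave 12 P8-only sites, 9 ranked higher at P0 and 2 at P8. Fold enrichment as deposited ranked 4 higher at P8, and ranks among shared sites gave 12 at P0 and 19 at P8. With a library left out, P0-only sites ran from 36 to 64 and P8-only sites from 4 to 12. Sites higher at P0 ran from 26 to 40 and sites higher at P8 from 10 to 22. Genes with more peaks in each P0 library ran from 6 to 9. Fewer libraries then had to agree, so these counts are not comparable with those over all 4 libraries. Only the matched background, the fold enrichment as deposited and the ranks among shared sites have genome shares beside their counts here. The other counts have none and are not set against the genome. No paired analysis was possible because the peak lists carry no replicate number that the labels tie to a library. Weak sites near the calling limit may be missed in the shallower P8 libraries, and the cause of the differences was not tested.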
